A study of Mus musculus with 13 samples.

Results

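The claudin and epithelial junction set comprised 10 genes, Cldn1, Cldn3, Cldn4, Cldn7, Cldn8, Tjp1, Ocln, Cdh1, F11r and Epcam, chosen by symbol, and all 10 were found among the 23951 symbols of the deposited tables. Expression had been measured by RNA sequencing of whole mammary gland in 13 libraries, 4 from Jak1 conditional knockout (KO) females on day 2 of involution, 3 from wild-type control females on day 2 of involution, 3 from KO females on day 7 of lactation and 3 from control females on day 7 of lactation. The labels give neither the Cre driver, nor the strain or the age of the mice, nor whether the KO covered all cells of the gland. Libraries are called here by mouse number. Number M43767 (KO) and number M43768 (control) each stand at both stages, while the series text counts 7 KO and 6 control animals, and the labels do not say whether a repeated number marks the same animal.

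Tight junctions seal the space between neighbouring epithelial cells near their apical surface, and in the lactating gland they keep milk separate from the blood side. Claudins are membrane proteins that form the sealing strands or ion-selective pores of these junctions, and occludin (Ocln) and junctional adhesion molecule A (F11r) are further membrane components that are linked to actin through scaffold proteins such as ZO-1 (Tjp1). E-cadherin (Cdh1) holds cells together at the adherens junction below, and EpCAM (Epcam) is an epithelial adhesion protein that binds and stabilises claudin-7. Milk removal stops at weaning, the gland then involutes, and tight junctions become leaky in its course. JAK1 is a kinase that passes signals from cytokine receptors to STAT transcription factors.

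Values are FPKM, fragments scaled by transcript length and library size, so levels can be compared between genes. The numbers of sequenced fragments were not in the files used here. Steps between low FPKM values, of which 69.5% (involution table) and 70.9% (lactation table) lay on whole-number ratios within 0.02 log2, gave relative depths of 0.485 to 1.50 between the involution libraries and 0.723 to 1.29 between the lactation libraries. All 10 luminal markers were detected, with summed levels of 1322 to 2354 FPKM in KO involution libraries, 1543 to 1941 FPKM in control involution libraries, 554 to 732 FPKM in KO lactation libraries and 633 to 791 FPKM in control lactation libraries. Jak1 itself was at 17.3 to 26.3 FPKM in KO and 24.0 to 24.6 FPKM in control involution libraries, and at 9.51 to 11.2 FPKM in KO and 6.18 to 14.2 FPKM in control lactation libraries, so its level in whole tissue did not separate the labelled genotypes. A few libraries stood apart. The KO involution library M43767 held 307 FPKM of 6 summed skin keratinocyte genes, against 1.76 to 4.69 FPKM in the other involution libraries, a sum that leaves out the skin gene Sbsn, which was at 166 FPKM in M43767 and 144 to 318 FPKM in the others. The control lactation library M43768 held 62.8 FPKM of 8 lymphocyte markers, against at most 5.12 FPKM in the KO lactation libraries. In the control lactation library M44175, genes with short transcripts were high and genes with long transcripts low, with a log2 difference of 0.95 between the shortest and the longest transcripts by quartile, against -0.32 to 0.40 in the others. In whole tissue, fewer cells of a type and less RNA per cell cannot be told apart.

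The claudins of the gland differed between the stages in composition, and this comparison within each library needs no scaling between libraries. Of 25 claudin symbols, 13 reached 1 FPKM in at least 1 library, 9 reached 10 FPKM and 5 were listed at 0 throughout. Cldn8 made up 6.12 ± 2.87% of the summed claudin FPKM in KO involution libraries and 49.3 ± 3.09% in KO lactation libraries (SD, n = 4 and 3). In control glands its share was 5.97 ± 0.946% at involution and 55.1 ± 10.4% at lactation (SD, n = 3 each). Cldn8, which encodes a claudin best known as a barrier to cations in the distal nephron, was thus the leading claudin in all 6 lactation libraries, where its lowest share was 43.1%, and a minor one in all 7 involution libraries, where its highest share was 10.3%.

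Cldn3, which encodes a sealing claudin, held the place of Cldn8 at involution. Its share was 35.1 ± 4.43% in KO involution libraries and 10.1 ± 1.38% in KO lactation libraries (SD, n = 4 and 3), and 30.2 ± 4.09% in control involution libraries and 9.89 ± 3.27% in control lactation libraries (SD, n = 3 each). Cldn4 encodes a claudin that shares with claudin-3 the property of being a receptor for Clostridium perfringens enterotoxin. It took 16.3 ± 2.75% at involution and 0.826 ± 0.242% at lactation in KO glands, and 16.8 ± 6.19% at involution and 1.06 ± 0.697% at lactation in control glands. The ranges of the stages did not overlap for Cldn8, Cldn3 or Cldn4 in either genotype. Cldn7 took 14.4 to 17.4% in KO involution and 20.0 to 23.6% in KO lactation libraries, and these ranges were apart as well. In control glands Cldn7 took 18.3 to 20.9% at involution and 12.5 to 25.5% at lactation, and these ranges overlapped. Cldn5, the claudin of endothelial cells and not of the member set, was at 15.5 ± 5.33% in KO involution and 3.09 ± 1.07% in KO lactation libraries. In control glands it was at 16.7 ± 5.86% at involution and 1.76 ± 0.719% at lactation. The endothelial marker sums, which include Cldn5, were 177 to 343 FPKM in KO involution and 37.3 to 52.1 FPKM in KO lactation libraries. They were 206 to 279 FPKM in control involution and 26.5 to 29.6 FPKM in control lactation libraries.

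**Figure D1:**
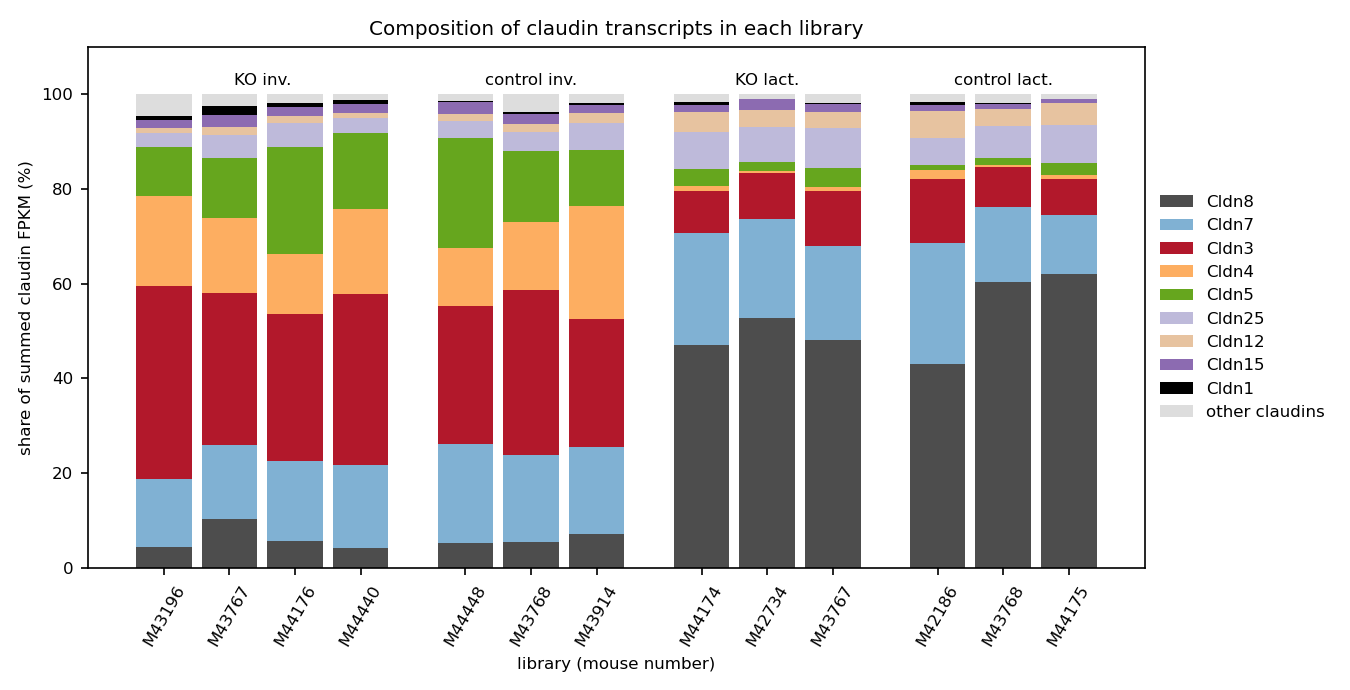
Share of each claudin in the summed claudin FPKM (vertical axis, %) of the 13 libraries (horizontal axis, mouse numbers), in 4 groups. Cldn8 takes 43.1 to 62.0% of every lactation bar and 4.23 to 10.3% of every involution bar, where Cldn3 takes 26.9 to 40.8%.

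Ratios between single genes within a library were chosen after the values were seen. Between 2 claudins such a ratio restates their shares, because the claudin total cancels, and adds no separate support. The Cldn8 to Cldn3 ratio lay between 0.107 and 0.320 in KO involution libraries and between 4.13 and 5.51 in KO lactation libraries. In control glands it lay between 0.159 and 0.263 at involution and between 3.16 and 8.15 at lactation. The Cldn3 to Cldn7 ratio was 1.82 to 2.83 in KO and 1.39 to 1.90 in control involution libraries, and 0.382 to 0.582 in KO and 0.535 to 0.606 in control lactation libraries. The products of Cldn7 and Epcam form a complex. The Cldn7 to Epcam ratio was 0.402 to 0.591 in KO and 0.411 to 0.465 in control involution libraries. It was 0.490 to 0.539 in KO and 0.364 to 0.433 in control lactation libraries. The genotypes thus overlapped in this ratio at involution and were apart at lactation, with 3 libraries each. In the other ratios given here they overlapped at both stages. How often ratios of other gene pairs are apart was not counted, so the gap carries no weight of its own. F11r was at 0.227 to 0.372 of Epcam in all 13 libraries. The Ocln to Tjp1 ratio was 0.443 to 0.686 in KO and 0.348 to 0.578 in control involution libraries, below its 0.749 to 1.25 in KO and 0.910 to 2.95 in control lactation libraries, the highest of which was M44175.

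**Figure D2:**
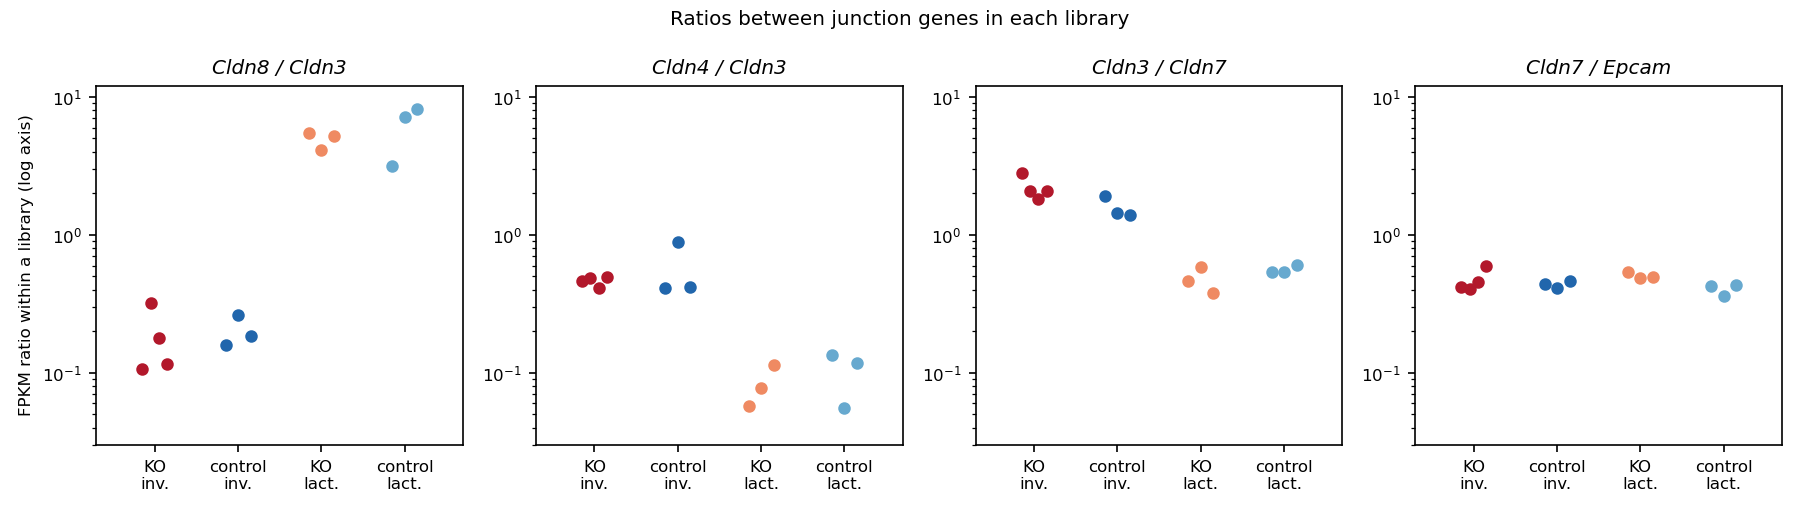
FPKM ratios of 4 gene pairs within each library (vertical axis, log scale), with 1 point per library and the 4 groups along the horizontal axis. Cldn8 over Cldn3 separates the stages by more than any of the other pairs, with at most 0.320 at involution and at least 3.16 at lactation, and Cldn7 over Epcam stays between 0.364 and 0.591.

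The deposited levels of the 10 members, by library, underlie these shares. Cldn8 had 31.5, 46.9, 36.7 and 33.8 FPKM in the KO involution libraries M43196, M43767, M44176 and M44440, and 28.4, 36.5 and 54.8 FPKM in the control involution libraries M44448, M43768 and M43914. It had 77.6, 90.4 and 69.1 FPKM in the KO lactation libraries M44174, M42734 and M43767, and 54.5, 100.5 and 201 FPKM in the control lactation libraries M42186, M43768 and M44175. In the deposited values the KO groups of the stages were apart, whereas the highest control value of involution, 54.8 FPKM, lay just above the lowest of lactation, 54.5 FPKM. In the same library order, Cldn3 had 294, 147, 205 and 290 FPKM in KO involution and 155, 229 and 209 FPKM in control involution libraries. It had 14.8, 16.4 and 16.7 FPKM in KO lactation and 17.2, 14.1 and 24.7 FPKM in control lactation libraries, and the genotypes overlapped at each stage. Cldn4 had 136, 71.2, 83.9 and 144 FPKM in KO involution and 65.3, 94.7 and 185 FPKM in control involution libraries. At lactation it was near the bottom of the set, with 1.68, 0.950 and 1.30 FPKM in KO and 2.31, 0.778 and 2.91 FPKM in control libraries. Cldn4 had the largest SD of the members over the 13 libraries, 2.31 on the rescaled log2 scale.

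Cldn3 and Cldn4 are direct neighbours in the RefSeq gene table, with no gene listed between them. Their promoter windows, the 250 bases before each annotated start, are shown because these neighbours were both higher at involution in either genotype. They come from the RefSeq set for GRCm38.p6, whereas the reads had been aligned to mm9 per the submitters' processing notes, and they lie at chr5:134946935-134947184 on the minus strand (Cldn4) and chr5:134985964-134986213 on the plus strand (Cldn3). Capitals mark the sequence CACCTG.
Cldn4: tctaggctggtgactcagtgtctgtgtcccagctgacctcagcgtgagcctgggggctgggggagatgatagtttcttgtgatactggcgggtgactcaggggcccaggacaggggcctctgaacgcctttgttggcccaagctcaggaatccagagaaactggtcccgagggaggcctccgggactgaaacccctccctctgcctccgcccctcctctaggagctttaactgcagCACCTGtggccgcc
Cldn3: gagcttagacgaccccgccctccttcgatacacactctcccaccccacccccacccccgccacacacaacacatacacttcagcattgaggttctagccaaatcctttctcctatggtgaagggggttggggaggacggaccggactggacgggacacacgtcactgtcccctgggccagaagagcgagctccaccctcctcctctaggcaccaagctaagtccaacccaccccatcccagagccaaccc
The windows were searched on both strands for TTCNNNGAA (a STAT dimer motif), CAGGTG or its complement CACCTG (the E-box of Snail and Zeb repressors) and AACCNGTT (grainyhead-like factors). Cldn4 held 1 E-box, with its first base 14 bases before the start, and Cldn3 held none of the 3 motifs. Windows were found for 8 of the 10 members, 10 windows in all, and not for Cldn8 and Cdh1. The E-box occurred in 5 of these 10 windows, of Cldn4, Cldn7, Ocln, F11r and Epcam, and in 17.2% of all 32851 windows of the set. The STAT motif occurred in 1 window, of Cldn7, and in 7.02% of all windows, and the grainyhead-like motif in no member window and 1.79% of all. These matches are letters in a window, not measured binding.

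Cldn7 had 104, 70.7, 112 and 139 FPKM in KO involution and 111, 121 and 144 FPKM in control involution libraries, and 38.9, 35.7 and 28.7 FPKM in KO lactation and 32.2, 26.3 and 40.7 FPKM in control lactation libraries. Epcam was the most abundant or second most abundant member in every group, with 251, 176, 246 and 236 FPKM in KO involution and 240, 273 and 350 FPKM in control involution libraries. At lactation Epcam had 78.8, 66.2 and 58.6 FPKM in KO and 74.9, 72.3 and 94.1 FPKM in control libraries. The genotypes overlapped at each stage in both genes. On the joint scale defined below, the stage groups of both overlapped in KO glands and were apart in control glands. A window of Cldn7 and a window of Ocln, not shown, each carried the E-box at 2 places. So did the Epcam window, chr17:87635729-87635978 on the plus strand of GRCm38.p6, which is shown as an example. Its E-boxes are in capitals, with first bases 187 and 19 bases before the start.
Epcam: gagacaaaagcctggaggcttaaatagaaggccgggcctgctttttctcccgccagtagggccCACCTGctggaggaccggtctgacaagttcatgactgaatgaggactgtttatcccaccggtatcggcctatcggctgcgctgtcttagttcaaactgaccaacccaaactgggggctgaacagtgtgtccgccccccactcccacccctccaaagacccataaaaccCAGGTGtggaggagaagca

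Among the other membrane and scaffold members, F11r had 67.9, 63.5, 84.8 and 87.8 FPKM in KO involution and 68.4, 98.6 and 118 FPKM in control involution libraries. At lactation F11r had 20.9, 18.1 and 17.4 FPKM in KO and 17.0, 20.8 and 33.5 FPKM in control libraries. Tjp1 had 8.30, 9.74, 12.1 and 11.6 FPKM in KO involution and 12.96, 10.95 and 12.5 FPKM in control involution libraries, and 4.00, 4.65 and 5.07 FPKM in KO lactation and 3.74, 4.79 and 3.84 FPKM in control lactation libraries. On the joint scale, the stage groups of Tjp1 overlapped in both genotypes, and those of F11r overlapped in control glands and were apart in KO glands. Ocln differed from them, with 5.70, 4.81, 6.32 and 5.12 FPKM in KO involution and 4.50, 4.73 and 7.25 FPKM in control involution libraries beside 5.01, 5.43 and 3.80 FPKM in KO lactation and 4.75, 4.36 and 11.3 FPKM in control lactation libraries. In these deposited values its stage groups overlapped in both genotypes, and its highest value came from M44175. On the joint scale the stage groups of Ocln were apart in both genotypes, with involution lower. They lay at 3.36 to 4.17 against 6.43 to 8.86 in KO glands and at 3.07 to 4.57 against 7.04 to 16.2 in control glands. Cdh1 had 31.5, 27.2, 30.1 and 33.7 FPKM in KO involution and 30.7, 47.8 and 48.7 FPKM in control involution libraries, against 5.99, 5.28 and 4.80 FPKM in KO lactation and 9.04, 5.41 and 2.81 FPKM in control lactation libraries. M44175 was the highest lactation library for Cldn3, Cldn4, Cldn7, Cldn8, Ocln, F11r and Epcam and the lowest for Cdh1.

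By mean level the order at involution began with Cldn3 and Epcam in KO glands, whose ranges overlapped, and with Epcam above Cldn3 in control glands, whose ranges were apart. Cldn4, Cldn7 and F11r followed, and neighbours among these overlapped in both genotypes. Cldn8 and Cdh1 overlapped each other below them, and Tjp1, Ocln and Cldn1 were lowest. At lactation Cldn8 and Epcam led with overlapping ranges, Cldn7, F11r and Cldn3 followed, Cdh1, Ocln and Tjp1 overlapped one another in the order of their means, and Cldn4 and Cldn1 came last in both genotypes.

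**Figure D3:**
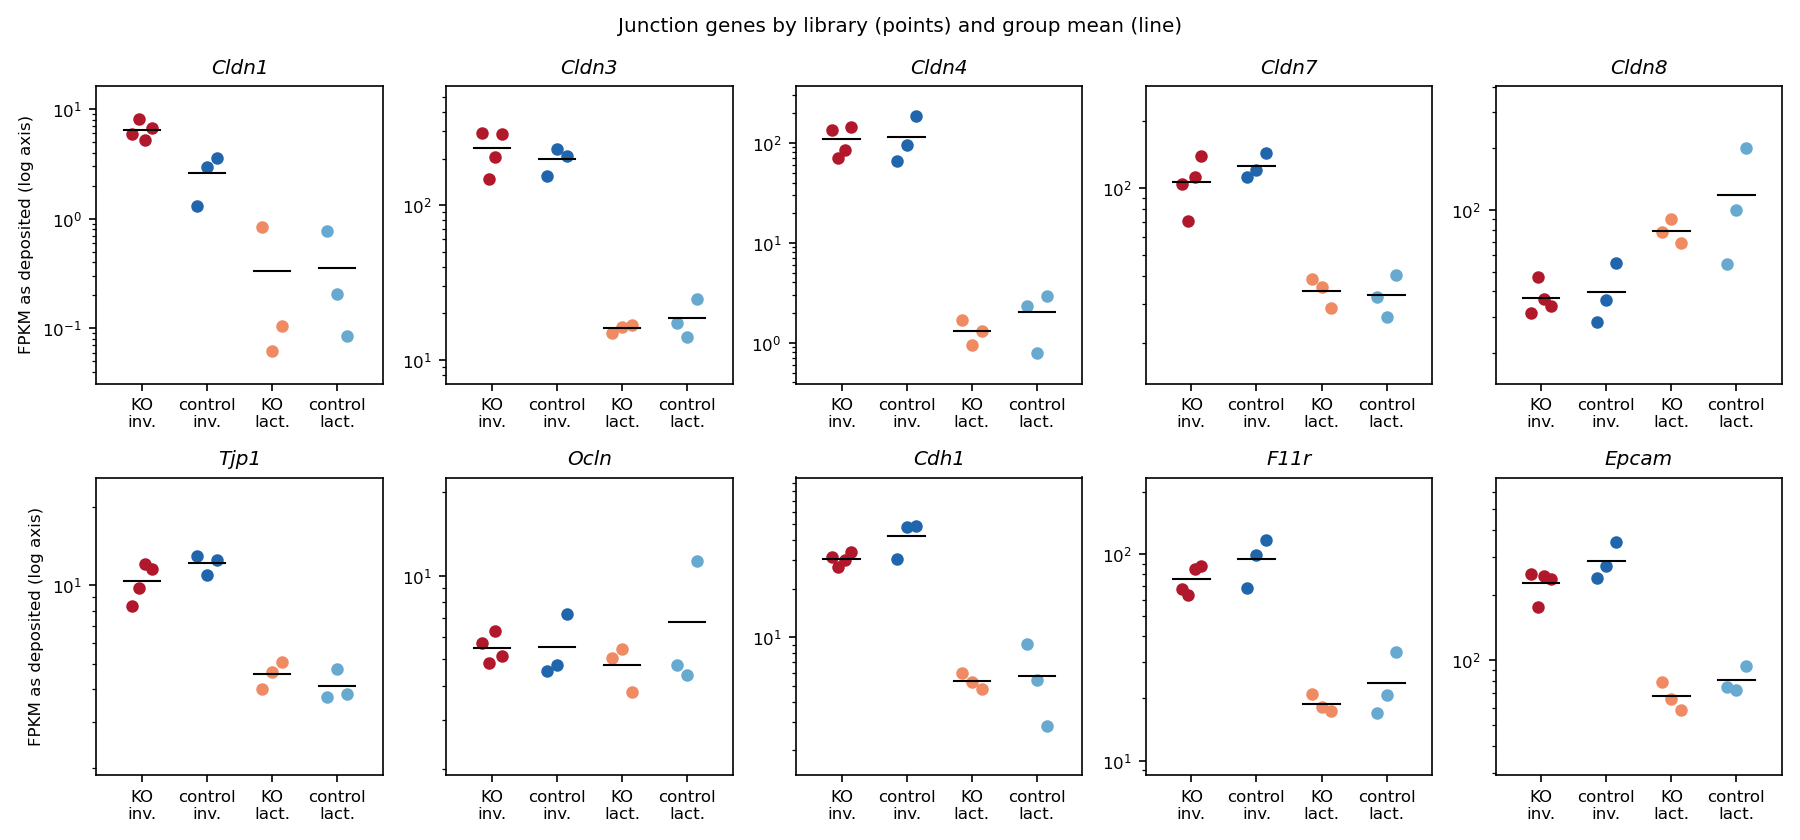
Deposited FPKM of the 10 members (1 panel each, log axis) in KO involution, control involution, KO lactation and control lactation libraries, with 1 point per library and a line at the group mean. Cldn3 and Cldn4 are far higher and Cldn8 lower at involution in these deposited values, the genotypes overlap in every panel at lactation, and Cldn1 is the member whose KO and control points are apart at involution, at 5.23 to 8.12 and 1.30 to 3.60 FPKM.

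The size of a stage difference depended on how libraries of the 2 tables were set on one scale. Each stage was deposited as its own table, no source used here states whether the tables had been normalised together, and stage and table cannot be told apart. Libraries were therefore rescaled with median-of-ratios factors over all 13 libraries before limma tested log2(FPKM + 1), with Benjamini-Hochberg adjustment over 12667 genes and a threshold of 0.05. Fold changes are on this log2(value + 1) scale, which understates changes of low genes. The median log2 difference of all genes, involution minus lactation, was 0.19 in KO and 0.17 in control glands on this scale. It was 1.11 and 1.06 in the values as deposited, and -1.34 and -0.98 when each library was scaled to its luminal keratins Krt8 and Krt18.

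In KO glands, 7 of 10 members passed, 5 higher and 2 lower at involution, against 34.7% of all genes tested (22.2% higher and 12.5% lower), and in control glands 8 of 10 passed, 6 higher and 2 lower, against 30.6% (19.4% higher and 11.2% lower). Of the 5 that were higher in KO glands 1 was Cldn1, which lay below 1 FPKM in all 6 lactation libraries and met the filter only through the involution libraries. On this scale the stage groups of 5 members were apart with involution higher and of 2 with involution lower, in KO glands against 29.2% and 17.9% of all genes and in control glands against 27.0% and 14.9%. The members' median difference was 0.57 in KO and 0.70 in control glands. Cldn4 rose by 4.51 ± 0.38 (SE) in KO and 4.18 ± 0.40 in control glands on the log2 scale (limma, adjusted p = 6.64e-06 and 2.04e-05), and its adjusted p stayed under 0.05 in every alternative run. Cldn8 fell in KO glands, with a log2 difference of -2.34 ± 0.33 (adjusted p = 3.13e-04), and in control glands, with -2.64 ± 0.35 (adjusted p = 2.17e-04), and it too passed in every alternative. Cldn3 rose by 2.48 ± 0.25 in KO and 2.12 ± 0.26 in control glands (limma, adjusted p = 2.57e-05 and 1.32e-04). Relative to Krt8 and Krt18 its difference kept its sign but no longer passed, at 0.53 in KO and 0.62 in control glands (limma, adjusted p = 0.121 and 0.103).

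The other members moved less, and for several the direction turned with the scale. Cdh1 had differences of 1.14 ± 0.31 in KO and 1.61 ± 0.33 in control glands (limma, adjusted p = 0.0133 and 0.00347), but -0.71 in KO and 0.20 in control glands relative to the keratins. F11r had 0.70 ± 0.22 and 0.74 ± 0.23 (limma, adjusted p = 0.0254 and 0.0295), and -1.24 in KO and -0.76 in control glands relative to the keratins. Ocln had -0.90 ± 0.24 in KO and -1.25 ± 0.26 in control glands (limma, adjusted p = 0.0135 and 0.00384), but 0.18 in KO and -0.18 in control glands as deposited. Cldn7 passed in control glands at 0.66 ± 0.23 (limma, adjusted p = 0.0463) and was at 0.31 ± 0.22 in KO glands (adjusted p = 0.289), and Epcam passed in control glands at 0.56 ± 0.20 (limma, adjusted p = 0.0459) and was at 0.45 ± 0.18 in KO glands (adjusted p = 0.0752). Both were lower at involution relative to the keratins, at -1.65 and -0.84 for Cldn7 and -1.53 and -0.95 for Epcam in KO and control glands. Tjp1 did not pass in either genotype, at -0.10 ± 0.17 in KO and 0.26 ± 0.18 in control glands (limma, adjusted p = 0.695 and 0.294). Cldn1, with the limit on its lactation values given above, was at 1.88 ± 0.32 in KO glands (limma, adjusted p = 9.82e-04, or 0.0954 relative to the keratins) and at 0.80 ± 0.34 in control glands (adjusted p = 0.0908).

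Single libraries mattered for the smaller differences. Without control lactation M43768, control involution M43768 or control involution M43914, 5 members passed in control glands, and Cldn7, F11r and Epcam each lost the call in all 3 fits. Without control lactation M42186, the same 3 genes also fell short and Cldn1 passed at 1.13 (limma, adjusted p = 0.03). In KO glands F11r lost the call without any 1 of M44174, M42734 and M43767 of lactation or M44176 and M44440 of involution, at adjusted p values of 0.0507 to 0.0785 (limma). Without KO lactation M42734, Ocln also fell short, at -0.82 (limma, adjusted p = 0.0535), and 5 members passed in KO glands.

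**Figure D4:**
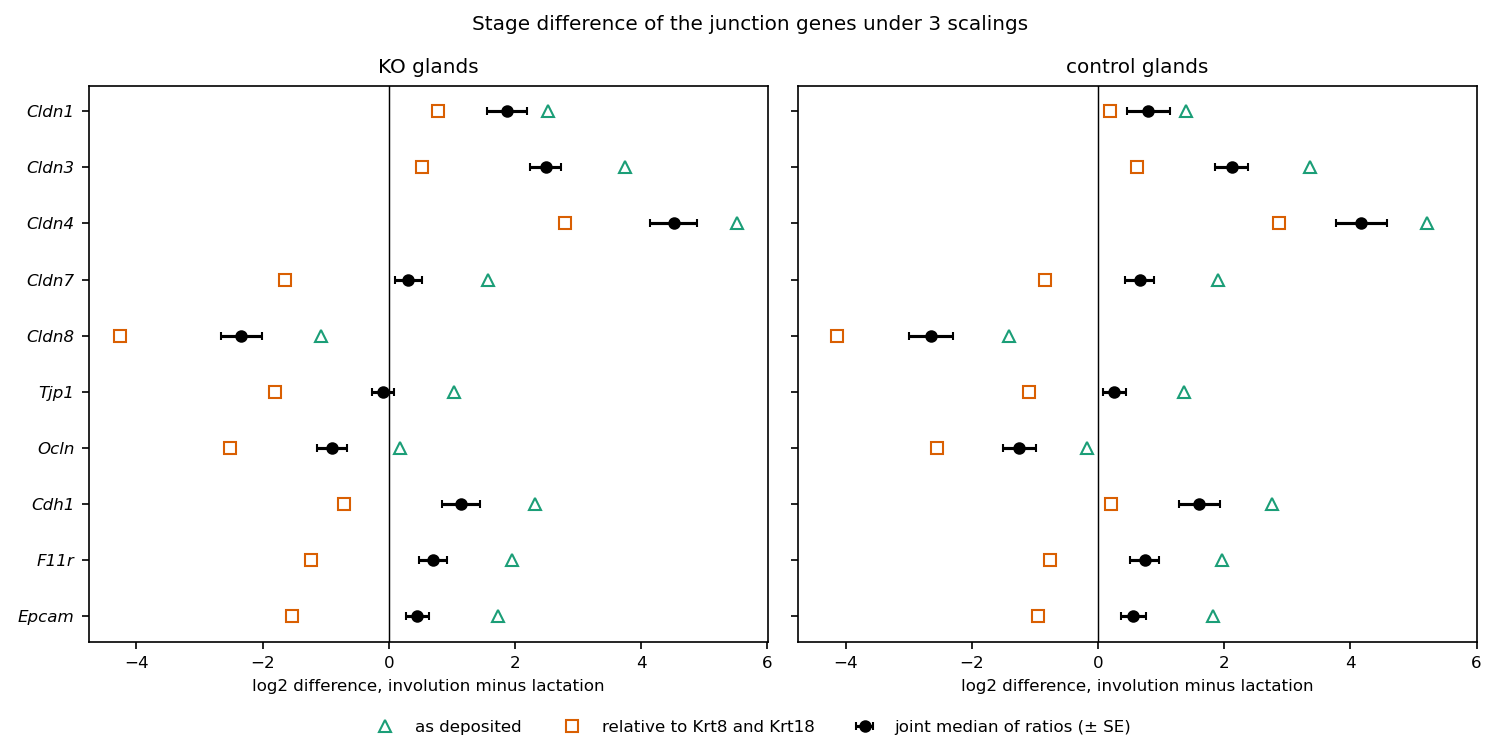
Log2 difference between involution and lactation (horizontal axis) of the 10 members in KO glands (left) and control glands (right), after joint rescaling (filled points, bars are SE), as deposited (triangles) and relative to Krt8 and Krt18 (squares). Cldn4 lies right and Cldn8 left of 0 on every scale in both genotypes, whereas F11r, Epcam, Cldn7 and Tjp1 change side with the scale in both and Cdh1 and Ocln change side in KO glands.

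Other junction genes were tested on the same joint scale, in lists that were chosen with earlier results of these data known. Among the genes named from them, Plekha7, Evpl, Zeb2, Twist1, Twist2, Magi1, Elf3, Cldn23, Ovol2, Prkcz and Cd44 reached 1 FPKM in fewer than 3 lactation libraries and met the filter through the involution libraries, so the direction of their differences carries no weight of its own. Of all genes tested, 22.2% rose and 12.5% fell in KO glands, and 19.4% rose and 11.2% fell in control glands. These shares stand beside each count of this paragraph. Of the other claudins, 3 of 7 tested rose and 1 fell in KO glands and 2 rose and 1 fell in control glands. In the lactation libraries alone, 5 of the 7 met the filter, and the direction of the rest carries no weight of its own. Cldn5 rose by 2.90 in KO and 3.50 in control glands, Cldn15, a pore-forming claudin, by 0.77 and 1.30 (-0.94 in KO glands relative to the keratins), and Cldn23 was at 1.98 in KO glands (limma, adjusted p = 0.0469), a call it lost in 9 of 15 alternatives, with adjusted p of up to 0.184. Cldn12 fell, at -0.77 in KO and -0.88 in control glands, but stood at 0.36 and 0.26 as deposited. Of 24 other tight junction genes, 21 met the filter in the lactation libraries alone. In KO glands 8 of the 24 rose and 2 fell, and in control glands 9 rose and 3 fell. Lsr, the angulin of tricellular junctions, rose by 1.18 in KO (-0.69 relative to the keratins) and 1.44 in control glands, and the scaffold gene Magi1 by 0.76 in KO (-0.52) and 1.06 in control glands. Among polarity genes, Prkci fell, at -1.14 in KO and -1.08 in control glands (0.05 and 0.10 as deposited), while Prkcz and Crb3 rose by 1.04 and 1.67 in KO glands (-0.32 and -0.22 relative to the keratins). The virus receptor gene Cxadr and the cingulin relative Cgnl1 rose by 1.35 and 1.42 in control glands.

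Of 14 adherens junction genes tested, 6 rose in KO and 8 in control glands and none fell, beside 22.2% of all genes that rose in KO and 19.4% in control glands. All 14 differences were positive in both, as were those of 61.9% of all genes in KO and 60.7% in control glands. The medians of the list were 0.49 in KO and 0.90 in control glands. In the lactation libraries alone, 10 of the 14 met the filter. The rest entered through the involution libraries, so their direction and their part in these counts carry no weight of their own. Lima1, an actin-binding protein gene, rose by 1.56 in KO (-0.22 relative to the keratins) and 1.83 in control glands, and Plekha7 by 0.96 and 0.90. The nectin genes Pvrl4 and Pvrl2 rose by 0.97 and 0.58 in KO glands (-0.61 and -1.31 relative to the keratins) and by 1.41 and 0.68 in control glands (Pvrl2 -0.77 relative to the keratins). Mllt4, which encodes the nectin partner afadin, rose by 0.74 in KO and 1.24 in control glands and stood at -1.04 and -0.13 relative to the keratins. Of 9 desmosome genes tested, 5 met the filter in the lactation libraries alone. In KO glands 2 of the 9 rose, and in control glands 3 rose and 1 fell. Of all genes, 22.2% rose in KO glands, and 19.4% rose and 11.2% fell in control glands. Pkp3 rose by 1.65 in KO (-0.04 relative to the keratins) and 1.71 in control glands, and Evpl by 1.00 and 0.76. Pkp4 rose by 0.68 in control glands (-0.62 relative to the keratins), and Perp fell there, at -1.33.

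For the next 3 lists, the shares of all genes were again 22.2% higher and 12.5% lower in KO glands. In control glands they were 19.4% higher and 11.2% lower. Of 7 gap junction genes tested, 1 fell in KO glands and 1 fell and 1 rose in control glands. In the lactation libraries alone, 5 of the 7 met the filter. Gjb1, which encodes connexin 32, fell in both, at -2.92 in KO and -2.95 in control glands, with deposited means of 11.3 ± 3.98 FPKM in KO involution and 38.0 ± 7.36 FPKM in KO lactation libraries (SD, n = 4 and 3) and of 12.1 ± 3.73 FPKM in control involution and 46.6 ± 23.2 FPKM in control lactation libraries (SD, n = 3 each). Gja4, the arterial connexin 37, rose by 0.65 in control glands (-0.53 relative to the keratins). Of 8 partners of EpCAM and genes of the matriptase system, 6 met the filter in the lactation libraries alone. Of the 8, 4 rose in KO glands and none passed in control glands. In control glands 5 had an unadjusted p under 0.05 by limma, and Cd9 came nearest at 0.85 (adjusted p = 0.0528, -0.66 relative to the keratins). The genes that rose in KO glands included Cd44 at 0.96, Spint1 at 0.83 and Spint2 at 0.68, which stood at -0.35, -1.11 and -1.31 relative to the keratins. Of 15 transcription factor genes tested, 7 rose and 1 fell in KO glands and 6 rose in control glands. In the lactation libraries alone, 8 of the 15 met the filter. The rest entered through the involution libraries, so their direction and their part in these counts carry no weight of their own. Elf3, an epithelial Ets factor gene, was at 1.89 in KO and 2.64 in control glands. Klf4 and Zeb2 rose by 1.02 and 0.74 in KO glands and 0.80 and 0.64 in control glands (-0.47, -0.38, -0.31 and -0.09 relative to the keratins), Twist1 and Twist2 by 0.86 and 0.63 in KO glands (-0.48 and -0.31), and Grhl2 and Ovol2 by 0.88 and 1.09 in control glands (Grhl2 -0.28).

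The next comparison asked whether loss of Jak1 changed the junction genes at each stage, and here KO and control libraries stood in one table. At involution, limma called none of the 10 members, against 0.0640% of 12509 genes tested, and 1 member, Cldn1, had an unadjusted p under 0.05, against 6.84% of all genes. Cldn1 encodes a sealing claudin that is essential for the barrier of the epidermis. It had 5.96, 8.12, 5.23 and 6.70 FPKM in the KO involution libraries M43196, M43767, M44176 and M44440, and 1.30, 2.96 and 3.60 FPKM in the control involution libraries M44448, M43768 and M43914. All KO values lay above all control values, which held for 1 of the 10 members and in that direction for 2.67% of all genes. The log2 difference of Cldn1 was 1.12 ± 0.25 (limma, unadjusted p = 0.00215, adjusted p = 0.317), and over 14 alternatives it lay between 0.80 and 1.40 with adjusted p from 0.145 to 0.774. As a share of summed claudin FPKM, Cldn1 took 0.792 to 1.79% in KO and 0.243 to 0.464% in control involution libraries. As a percentage of the geometric mean of Krt8 and Krt18, Cldn1 was at 1.00 to 2.65% in KO and 0.443 to 1.30% in control involution libraries, and there the groups overlapped.

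The highest Cldn1 value came from the library with skin keratinocyte genes, M43767, and without it the difference was 1.02 ± 0.27 (limma, adjusted p = 0.52). The summed level of 9 basal epithelial markers was 477 to 559 FPKM in KO and 252 to 428 FPKM in control involution libraries. That of 8 fibroblast markers was 332 to 878 FPKM in KO and 206 to 469 FPKM in control libraries. None of these markers was at 0 in all libraries of a group. The part of these cell types in the Cldn1 difference was not tested. The promoter window of Cldn1, chr16:26371840-26372089 on the minus strand of GRCm38.p6, is shown as that of the 1 member whose genotypes were apart, and it held none of the 3 motifs.
Cldn1: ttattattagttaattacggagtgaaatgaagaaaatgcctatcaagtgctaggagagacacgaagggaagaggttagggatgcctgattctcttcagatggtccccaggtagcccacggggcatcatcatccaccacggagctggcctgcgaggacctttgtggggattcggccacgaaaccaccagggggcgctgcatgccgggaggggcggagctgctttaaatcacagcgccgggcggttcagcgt

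The other 9 members had differences between -0.41 and 0.23 at involution, each with overlapping groups. Cldn3 was at 0.23 ± 0.28, Cldn4 at 0.02 ± 0.39, Cldn7 at -0.24 ± 0.24 and Cldn8 at -0.04 ± 0.24 (limma, adjusted p of 0.974 to 0.998). Relative to the keratins Cldn3 and Cldn4 stood at -0.20 and -0.41. The median of all genes also moved on that scale, to -0.35 from 0.0095, so a turn of sign there is not particular to these genes. Cdh1 was at -0.41 ± 0.19 (limma, adjusted p = 0.772), Epcam at -0.31 ± 0.21, F11r at -0.27 ± 0.22, Tjp1 at -0.19 ± 0.16 and Ocln at 0.04 ± 0.17 (-0.32 relative to the keratins). When FPKM were set relative to Krt8 and Krt18, Cdh1 was at 5.29 to 8.89% of their geometric mean in KO and 10.5 to 17.5% in control involution libraries, and Epcam at 42.2 to 69.5% in KO and 70.7 to 126% in control libraries. On that scale 2 members lay lower in every KO library than in every control library, against 8.75% of all genes, and neither passed (Cdh1 -0.82 and Epcam -0.74, limma, adjusted p = 0.569 for each). Within the claudins, the Cldn7 share was 14.4 to 17.4% in KO and 18.3 to 20.9% in control involution libraries, a gap noticed after the values were seen. Such a gap was not particular to Cldn7. The shares of Cldn1, Cldn6 and Cldn9 were also apart, with KO higher, and Cldn6 and Cldn9 stayed below 1 FPKM in every library.

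At lactation, 9 members passed the filter on low values and limma called none of them, against 0.0105% of 9560 genes tested, and none had an unadjusted p under 0.05, against 2.38% of all genes. Differences lay between -0.33 ± 0.41 for Cldn8 and 0.18 ± 0.20 for Tjp1 (limma, adjusted p = 0.998 throughout). Cldn1, which missed the filter, had 0.842, 0.0628 and 0.106 FPKM in KO and 0.769, 0.206 and 0.0856 FPKM in control lactation libraries. All 10 members overlapped between the genotypes, where 6.06% of all genes did not. Without control library M44175, whose short transcripts were high, the differences of Cldn3, Cldn8, Ocln and F11r turned to 0.04, 0.10, 0.05 and 0.01, and that of Cdh1 to -0.33.

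**Figure D5:**
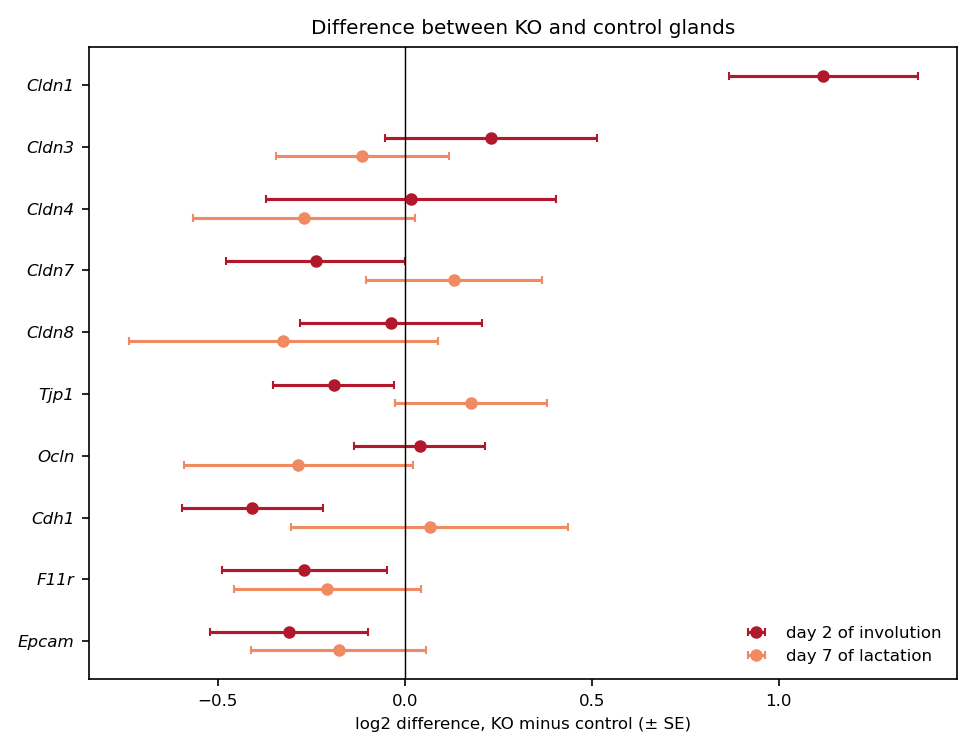
Log2 difference between KO and control glands (horizontal axis, bars are SE) of the 10 members on day 2 of involution (dark) and day 7 of lactation (light), rescaled within each table. Cldn1 at involution, at 1.12, stands away from the rest, which lie between -0.41 and 0.23, and it has no lactation value because it missed the filter there. Relative to Krt8 and Krt18, Cldn3, Cldn4 and Ocln turn negative at involution, where the median of all genes is -0.35.

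The difference of the KO effect between the stages was tested as an interaction. Limma called none of the 10 members, against 0.0789% of 12667 genes, and 1 member had an unadjusted p under 0.05, against 3.35% of all genes. This was Cldn1, with a term of 1.15 ± 0.41 (limma, unadjusted p = 0.0146, adjusted p = 0.999), which met the filter only through the involution libraries and has no lactation effect of its own beside it. The other 9 interaction terms lay between -0.47 for Cdh1 and 0.34 for Cldn3. No gene of the 7 other junction lists passed in the main fit of a KO comparison either. At involution the smallest p values belonged to Cldn12 (-0.36), the scaffold gene Mpdz (0.44), the nectin gene Pvrl3 (0.36), Dsg2 (-0.35), Gjb6 (1.47), Cd44 (0.61) and Twist2 (0.74), with adjusted p of 0.474 to 0.916 (limma). Over these lists at involution, 9 of 84 genes tested had an unadjusted p under 0.05, beside 6.84% of all genes. At lactation they belonged to Cldn15 (0.46), Jam2 (0.39), Cdh5 (0.86), Pkp4 (0.38), Gjb2 (1.04), Tspan8 (-1.12) and Snai2 (0.54), each with an adjusted p of 0.998 (limma). Tspan8 passed at lactation under 1 of 13 alternatives (limma, adjusted p = 0.0488).

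The genes whose values across the 13 libraries ran closest to a member were ranked by the root-mean-square difference of log2 values, each centred on its own mean, among 11978 genes. For Cldn8 they were Hsd17b7, Eef1e1 and Slc30a4, at 0.26 to 0.31 beside an SD of 1.36 for Cldn8 itself. For Cldn3 they were Amdhd2, 2310030G06Rik and Trip6, at 0.24 to 0.30 beside an SD of 1.24, and for Cldn4 they were Wnt5b, Slc5a8 and Dmkn, at 0.40 to 0.53 beside an SD of 2.31. Cldn1 ran closest to Wnk2, Krt7 and Tpm4, at 0.37 to 0.38 beside an SD of 0.92. Genes close to Cdh1 included Pik3r1 and Afap1, at 0.20 and 0.22 beside an SD of 0.81, and Ocln ran closest to Mtmr2, Rab9 and Pno1, at 0.12 to 0.14 beside an SD of 0.63. These distances describe 13 libraries that share the stage difference and the table they came from.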

How the data were processed

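Total RNA of 13 mammary gland samples was sequenced as TruSeq libraries, per the labels' protocols. The submitters' processing notes name CASAVA, cutadapt, TopHat and the mouse build mm9, with no versions, and no source used here names the program that made the values. The values deposited by the authors are FPKM per gene symbol, 1 table per stage, and counts of fragments were not used here. Samples were grouped by their titles.

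For the KO comparisons and the interaction, each library was divided by a median-of-ratios factor computed within its table, and for the stage comparisons by a factor over all 13 libraries. A gene entered a fit where 3 or more of its libraries reached 1 FPKM. A pseudocount of 1 was added, and limma 3.58.1 (R 4.3.3; lmFit and eBayes with a trend) tested log2 values, adjusted over all genes kept by Benjamini and Hochberg, with 0.05 as the threshold. The procedure was tested on simulated data. Samples were taken as separate animals, as the series text counts them, although 2 mouse numbers stand at both stages. Over all 78 pairs of libraries, both tables included, a pair had identical nonzero values in at most 0.0123% of genes, and within groups Pearson's r across genes was 0.934 to 0.972. Groups of 4 were checked for samples far from the others, and no member was flagged.

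All members are named. Of each other list, the genes past the threshold are named (at most the 5 with the smallest p), or the 1 with the smallest p, and some genes that these rules select are not reported here. The members and all lists were chosen with earlier results of these data known, and shares and ratios after the values were seen. Alternatives were a pseudocount of 0.1, no filter, no rescaling, quantile normalization, scaling to Krt8 and Krt18, array weights, a joint fit, factors within each table, leaving out each library, and, chosen after the data were seen, a block by mouse number. Python 3.11.15 and pandas 2.3.3 were used for tables.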

Additional observations from a re-analysis of the deposited data

How the results depend on the processing

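Of 747 values of the members under alternatives, 651 kept direction and side of the threshold, 27 no longer passed, 15 came to pass and 54 turned sign. The count of members called stayed at 0 in the KO comparisons and the interaction under every alternative run. For the stage difference it ranged from 5 to 8 without 1 library in KO and from 5 to 8 in control glands. The causes were not tested. In KO minus control at lactation, with array weights, Cldn3 moved to 0.18, Cldn4 to 0.20, Ocln to 0.037 and Cdh1 to -0.089, and without 1 library Cldn3 spanned -0.27 to 0.044, Ocln -0.49 to 0.049, Cdh1 -0.33 to 0.45, Cldn8 -0.73 to 0.10 and F11r -0.36 to 0.0060. At involution, Cldn4 was at -0.0085 as deposited, -0.0079 after quantile normalization and -0.41 relative to Krt8 and Krt18, where Cldn3 was at -0.20 and Ocln at -0.32. The median of all genes relative to these keratins was -0.35. Cldn8 was at 0.089 with array weights. Without 1 library, Cldn4 spanned -0.30 to 0.41, Ocln -0.052 to 0.21 and Cldn8 -0.23 to 0.20. The interaction relative to the keratins was -0.10 for Cldn3, -0.15 for Cldn4, -0.15 for Cldn8 and -0.041 for Ocln, beside a median of -0.36 over all genes. With array weights the interaction was -0.10 for Cldn3 and -0.13 for Cldn4. Without 1 library it spanned -0.032 to 0.68 for Cldn4, -0.13 to 0.70 for Cldn8, -0.0094 to 0.52 for Ocln, -0.28 to 0.095 for F11r and -0.24 to 0.0027 for Epcam.

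For involution minus lactation in KO glands, values as deposited were 1.03 for Tjp1, 0.18 for Ocln, 0.36 for Cldn12 and 0.052 for Prkci, and with separate factors by table they were at 1.01, 0.16, 0.34 and 0.032. Tjp1 spanned -0.20 to 0.0068 without 1 library. Relative to the keratins, values were -1.65 for Cldn7, -0.71 for Cdh1, -1.24 for F11r, -1.53 for Epcam, -0.94 for Cldn15, -0.32 for Prkcz, -0.69 for Lsr, -0.22 for Crb3, -0.52 for Magi1, -0.22 for Lima1, -0.61 for Pvrl4, -1.31 for Pvrl2, -1.04 for Mllt4, -0.044 for Pkp3, -0.35 for Cd44, -1.11 for Spint1, -1.31 for Spint2, -0.47 for Klf4, -0.48 for Twist1, -0.38 for Zeb2 and -0.31 for Twist2. In control glands, Cldn12 and Prkci were at 0.26 and 0.10 as deposited and 0.28 and 0.11 with factors within each table. Relative to the keratins, values were -0.84 for Cldn7, -1.09 for Tjp1, -0.76 for F11r, -0.95 for Epcam, -0.13 for Mllt4, -0.77 for Pvrl2, -0.62 for Pkp4, -0.53 for Gja4, -0.66 for Cd9, -0.28 for Grhl2, -0.31 for Klf4 and -0.088 for Zeb2. Members called relative to the keratins were 8 in KO glands, 1 higher and 7 lower, and 6 in control glands, 1 higher and 5 lower, and as deposited 9 in each, 8 higher and 1 lower.

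Mouse number as a block in limma (duplicateCorrelation over 13 libraries, chosen after the data were seen) rests on 2 numbers that stand at both stages, and the labels do not say that these mark the same animals. The estimated correlation was 0.712 for the stage differences and 0.697 for the interaction. With the block, 8 members passed in KO glands, Epcam joining at 0.38 (adjusted p = 0.0326), 9 passed in control glands, Cldn1 joining at 0.95 (adjusted p = 0.0125), and none in the interaction, where Cldn3 turned to -0.17 and Cldn4 to -0.16. Over all genes, 6264 passed in KO and 5873 in control glands with the block, against 4396 and 3870 without it. With 3 or 4 libraries a group, and values below 1 FPKM for Cldn1 at lactation, small differences could not be resolved. The numbers of fragments were unknown, and the part of sequencing depth in this was not tested.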
